A study of Mus musculus with 2 samples.

Results

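The 10 genes described here encode the chains, editors and main regulators of the major histocompatibility complex (MHC) class II pathway. They were H2-Aa, H2-Ab1, H2-Eb1, H2-DMa, H2-DMb1, H2-DMb2, H2-Oa and H2-Ob in a cluster on chromosome 17, Cd74 on chromosome 18 and Ciita on chromosome 16. DNase I hypersensitive sites (DHS), stretches of accessible DNA that the enzyme DNase I cuts readily, were taken as members when they overlapped the body of a gene or the 50 kb on either side of it. In the chromosome 17 cluster each DHS went to the gene with the nearest transcription start site (TSS). By this rule 101 of the 47474 DHS on chromosomes 1 to 19 and X belonged to the 10 genes, of which 64 lay in the cluster, 14 around Cd74 and 23 around Ciita.

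The DHS were mapped in splenic B cells of C57/Bl6 mice with the genotype Trp53+/+, 8 weeks of age, in the mock group, which had not been irradiated. The cells were enriched on magnetic beads against B220, a form of CD45 that B cells carry and that plasmacytoid dendritic cells carry as well. The series holds 1 DNaseI library, whose peak list was analysed, and 1 input library, of which no file was used here. There was no second condition and no replicate, so all comparisons are descriptions of this library and no p-value is given.

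MHC class II molecules present peptides from endocytosed proteins to CD4+ T cells, and B cells, dendritic cells and macrophages carry them constitutively. Each molecule pairs an α with a β chain, is held by the invariant chain until it reaches the endosome, and is then loaded with peptide under the control of the H2-M and H2-O heterodimers. Transcription of these genes depends on a shared promoter module. In it the RFX complex binds the X box, NF-Y binds the Y box, an inverted CCAAT sequence, and the transactivator encoded by Ciita is recruited to the assembled factors without binding DNA itself.

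The sequences on which much of the description below rests are the X boxes that were followed by a Y box, ATTGG, 15 to 30 bases further on the same strand. They are given 5′ to 3′ on the strand on which the X box comes first, from the mm9 genome, with the 14-base X box and the Y box in capitals.
H2-Ab1, chr17:34400091-34400131: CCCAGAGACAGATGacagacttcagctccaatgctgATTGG
H2-Eb1, chr17:34442717-34442757: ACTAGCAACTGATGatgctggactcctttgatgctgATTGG
H2-DMb2, chr17:34282067-34282108: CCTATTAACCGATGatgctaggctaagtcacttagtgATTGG
H2-Ob, chr17:34375759-34375797: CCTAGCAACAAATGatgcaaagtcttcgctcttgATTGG
distal of H2-Ab1, chr17:34398630-34398671: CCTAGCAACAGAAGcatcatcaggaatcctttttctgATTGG
upstream of H2-Oa, chr17:34216707-34216747: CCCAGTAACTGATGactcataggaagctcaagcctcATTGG
upstream of H2-Ea-ps, chr17:34484661-34484703: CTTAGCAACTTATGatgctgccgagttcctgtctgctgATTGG
The pairs at H2-DMb1 and H2-DMa lie in annotated untranslated exon sequence and are given by their X box alone.
H2-DMb1 X box: CCTAGTAACTGATG
H2-DMa X box: CTCAGCGACTGATG
The first 4 lines are the pairs close to a start site, and the next 3 are pairs away from one. The pair called distal of H2-Ab1 lies 1483 bp upstream of its TSS, which is still inside the promoter window used below.

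Whether the list represents B cells was examined first with markers of the cell types that a spleen preparation may hold. A promoter DHS, here a DHS that overlaps the stretch from 5 kb upstream to 2 kb downstream of a TSS of the gene, was called at 57.0% of 22350 protein-coding genes and at 8 of 8 B cell genes, with scores from 72.14 to 269.18. It was called at 1 of 8 T cell genes (Lck, 92.81). Of 8 dendritic cell and macrophage genes, cells which use class II molecules too, 5 had a promoter DHS, with scores from 18.16 to 51.05, while Itgax, Csf1r and Lyz2 had none. This count is near the share of all genes. In this bulk preparation fewer open cells and weaker opening in each cell cannot be told apart, and the part of other cells in the class II DHS was not tested. The number of reads is unknown. A missing DHS therefore means only that none was called.

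All 10 class II genes had a promoter DHS (exact binomial interval 69.2 to 100%), compared with 57.0% of 22350 protein-coding genes. The interval takes the 10 genes as independent, although 8 of them are neighbours in the same cluster. A DHS came within 1 kb of a TSS in all 10 as well, against 53.7% of genes, and covered a TSS in 9, against 46.6%. The exception was H2-DMa. A promoter score within the top decile of all DHS, at or above 127.7, was found for 7 of the 10 genes, against 19.9% of protein-coding genes, and not for H2-DMa, H2-DMb1 and Ciita. The score is the value that the authors' peak caller gave to each DHS. Its scale is not given in the sources used here, and it is read as a rank within this list, where it ran from 5.05 to 619.44 with a median of 32.65.

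**Figure D1:**
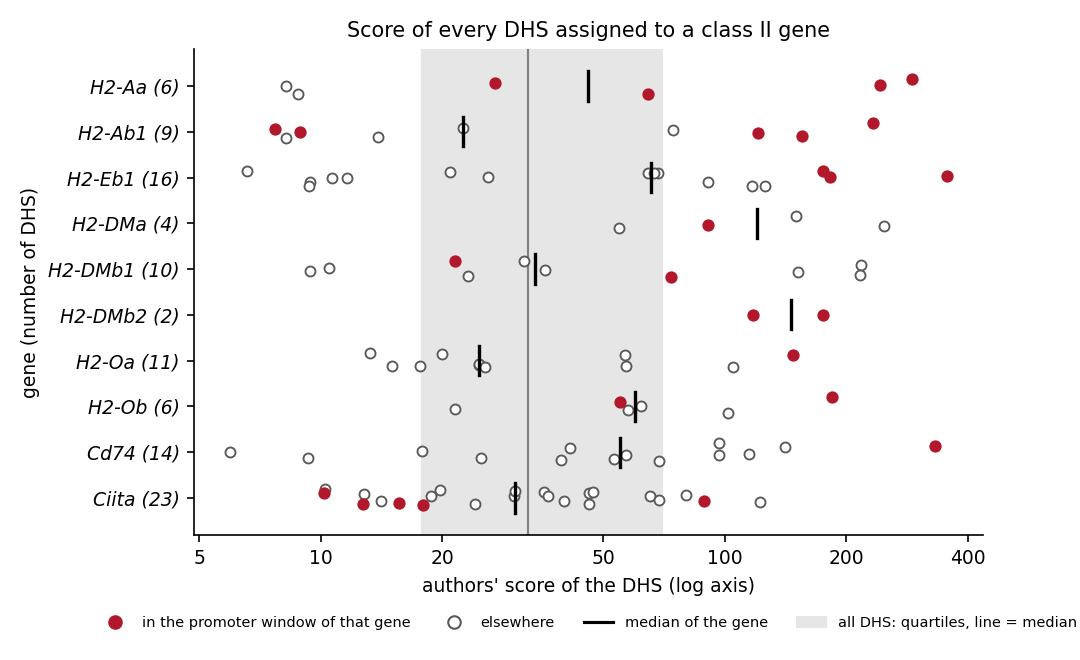
Score of each of the 101 DHS (log axis) by gene, with the number of DHS in parentheses. Red points lie in the promoter window of that gene, open points elsewhere, black bars are the median of each gene, and the grey band with its line gives the quartiles and median of all DHS (17.85, 69.91 and 32.65). The highest points of H2-Eb1 (356.19), Cd74 (331.65) and H2-Aa (291.49) are promoter DHS, whereas the highest of Ciita, H2-DMa and H2-DMb1 are not.

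Among the 8 class II genes of the cluster, those of the classical α and β chains had the highest promoter scores, each the top score in the promoter window. At H2-Ab1 the DHS with that score lay upstream of the TSS. The DHS over its TSS had 155.97, below the 184.94 of H2-Ob and the 175.3 of H2-DMb2. H2-Eb1, the β chain of I-E, had a DHS with a score of 356.19 at chr17:34442779-34445141, over both its annotated TSSs. This was percentile 99.5 of all DHS, and among promoter scores of genes it was at percentile 98.8. The DHS began 49 bp upstream of the TSS and reached 2313 bp into the gene. DHS covered 61.5% of the gene body. The matching α chain is not made in C57/Bl6 mice, where its gene is the pseudogene H2-Ea-ps.

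H2-Aa, the α chain of I-A, had its highest DHS, with a score of 291.49, at chr17:34422108-34426196, a site of 4089 bp over all 5 annotated TSSs. Upstream of it lay 3 further DHS that touched its promoter window, with scores of 64.8, 26.99 and 243.32. The last was 7995 bp wide, at chr17:34429330-34437324, and its centre was at -8555 bp from the nearest TSS of the gene, a negative value meaning upstream. Over the rest of the H2-Aa body only weak sites were called, of which those assigned to H2-Aa had scores of 8.22 and 8.77. DHS covered 30.6% of the body. Thus the opening at H2-Aa was concentrated at the start and on its upstream side.

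H2-Ab1, the β chain of I-A, was flanked by a pair of strong DHS that nearly met at its start. The upstream DHS, at chr17:34397697-34400064, had a score of 233.34. The other, at chr17:34400145-34402688, had a score of 155.97, began 9 bp upstream of the first TSS and extended 2534 bp downstream. Further upstream lay DHS with scores of 121.3 and 74.7, and downstream of the strong pair the 4 remaining sites toward the end of the gene and beyond had scores from 7.71 to 22.44. H2-Ab1 and H2-Aa are transcribed toward each other and their annotated ends overlap, so the weak sites there cannot be given to either gene by position alone.

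The edges of these sites relative to the TSS were compared with other genes. Among 9063 protein-coding genes with a DHS over the first TSS, the median DHS reached 649 bp upstream and 794 bp downstream. The upstream reach at H2-Ab1 and H2-Eb1 was at percentile 1.40 and 7.08 of these genes, and the downstream reach at percentile 98.5 and 97.9. The short upstream reach holds for single DHS only, since a further DHS, with a score of 233.34 at H2-Ab1 and 175.3 at H2-Eb1, followed upstream across a gap of 80 and 66 bp. The one at H2-Eb1 covered the annotated start of Gm20513, a transcript on the opposite strand, at position 34442665. H2-Aa was high on both sides, at percentile 94.5 upstream and 98.8 downstream. H2-DMa had no DHS over its start and did not enter this comparison, and for Ciita the reach depends on which of its TSSs is taken.

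**Figure D2:**
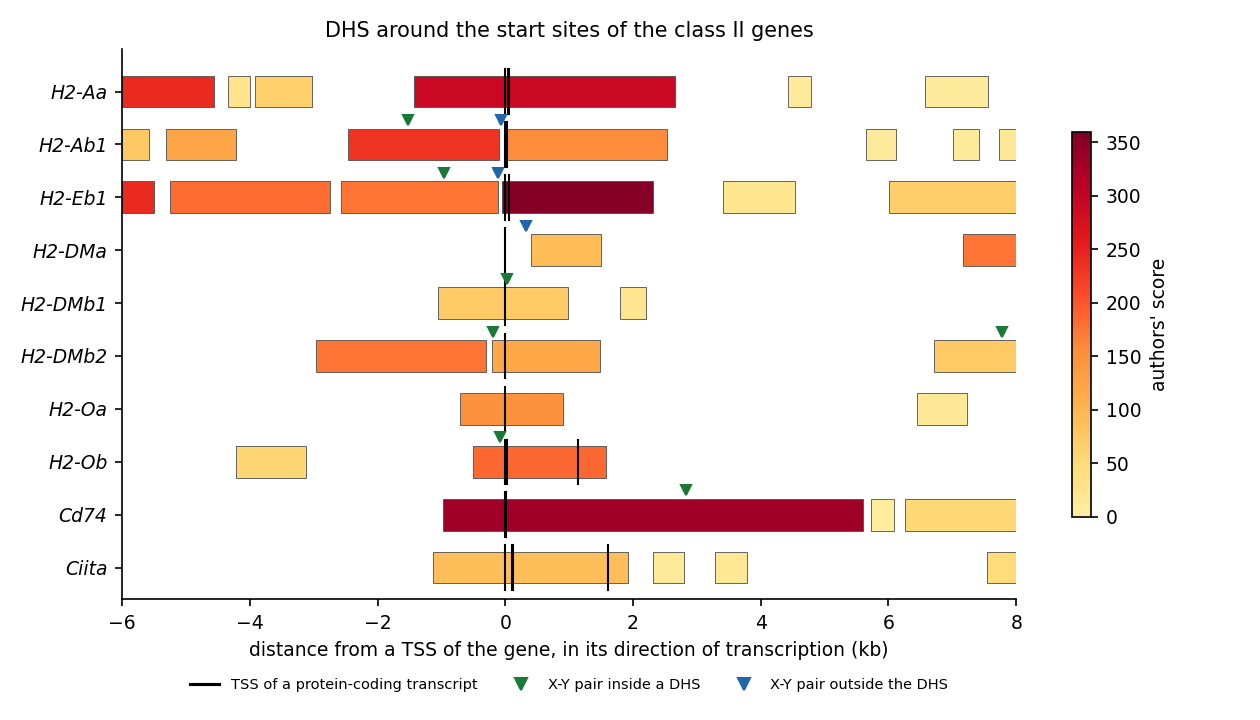
DHS from 6 kb upstream to 8 kb downstream of a TSS of each gene (x axis, kb in the direction of transcription), shaded by score. Black lines are TSSs of protein-coding transcripts, green triangles X-Y pairs inside a DHS and blue triangles pairs outside. At H2-Ab1 and H2-Eb1 the TSS lies at the upstream edge of a DHS, and a blue triangle marks the gap in front of it, while at Cd74 a single DHS runs from 972 bp upstream to 5600 bp downstream.

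The genes of the peptide-editing heterodimers had lower promoter scores than the classical chains when the whole promoter window was taken. Among DHS over a TSS, H2-Ob (184.94) and H2-DMb2 (175.3) were above H2-Ab1 (155.97), and H2-Oa (147.77) and H2-DMb1 (73.81) below it. H2-DMa, the α chain of H2-M, had a DHS with a score of 91.07 at chr17:34272534-34273630. It began 407 bp downstream of the first TSS, and no DHS was called over the TSS itself. H2-DMb2, a β chain, had DHS with scores of 175.3 and 117.52, the second of them at chr17:34282045-34283739 over the TSS of its protein-coding transcript. H2-DMb1, the other β chain, had a DHS of 2040 bp over its first TSS with a score of 73.81, the lowest promoter score of the 10 genes, and a weak one with a score of 21.47 in its body.

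H2-DMb1 and H2-DMb2 are close paralogs, and reads that map to both may have been lost or shared. In the H2-DMb1 promoter DHS 28.3% of 31-base words occur more than once in the assembly, and in both H2-DMb2 DHS 15.4 and 22.0% do. The order of these genes is uncertain for that reason. Over all 101 DHS the median share of repeated words was 0.451%, 11 DHS were above 10% and 0 above 50%.

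H2-Oa and H2-Ob encode the chains of H2-O, an inhibitor of H2-M. Each had a DHS over its TSS in the top score decile of the list, with scores of 147.77 for H2-Oa at chr17:34228570-34230197 and 184.94 for H2-Ob at chr17:34375351-34377426. For H2-Ob a further site with a score of 54.97 lay in the promoter window, its centre at -3671 bp from the TSS. For H2-Oa the next strong site was intergenic, with a score of 105.12 and a width of 2722 bp, 9969 bp downstream.

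Cd74 encodes the invariant chain. Its start was covered by a DHS of 6573 bp with a score of 331.65, at chr18:60962530-60969102, the 8th widest of the list. The downstream reach of 5600 bp was at percentile 99.99 of the genes compared above. Behind it 3 further DHS followed at gaps under 500 bp, with scores of 5.97, 53.26 and 17.78, and together the sites covered 96.6% of the gene body. Joined across gaps under 500 bp, they made a run of 12607 bp, the 4th longest of 37471 runs. Of the other 10 DHS in its window the highest score, 140.77, was near Rps14.

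Ciita encodes the transactivator of the pathway and is transcribed from alternative first exons that differ in use between cell types. Of its 5 annotated TSSs, 4 lay in a single DHS of 3063 bp, at chr16:10487133-10490195, with a score of 89.07. The most upstream TSS, at position 10480237, was 3057 bp from the nearest DHS, which had a score of 17.92. Ciita, the longest of the 10 genes at 47421 bp, had 14 DHS over its body, where H2-Aa had 6 in 18497 bp and Cd74 3 in 8799 bp. The 23 DHS of its window had a median width of 540 bp and a median score of 30.24, below the 760 bp and 32.65 of all DHS. The strongest inside the gene after the promoter site was an intronic DHS at chr16:10515404-10517205, with a score of 80.27. The highest score in the window, 122.72, belonged to a DHS at the start of Clec16a, 55923 bp from the nearest Ciita TSS by its centre. GENCODE M1 lists Ciita under 2 gene identifiers, which were joined here by symbol.

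The DHS of the 10 genes were next compared with the list as a whole. Their median width was 892 bp (order-statistic interval 716 to 1056) against 760 bp, and their median score 46.12 (26.99 to 62.25) against 32.65. The 10 DHS that lay over a TSS of their own gene had a median width of 2453.5 bp and a median score of 165.6. For comparison, DHS over the first TSS of 9063 protein-coding genes had medians of 1481 bp and 105.6. Of the 101 DHS, 58 were in a promoter window of an annotated gene (57.4%), against 47.5% in the whole list. Of the rest, 18 lay between genes, 13 in introns and 12 in exons. The class II DHS away from promoters had a median score of 25.45, and all such DHS 24.33. The 3 strongest of them were the site with a score of 151.86 between H2-DMb1 and Psmb9, an exonic site nearest to Tcof1 with 114.79 in the Cd74 window, and the site with 105.12 downstream of H2-Oa. The widest DHS of the set, after those of 7995 bp at H2-Aa and 6573 bp at Cd74, measured 4398, 4257 and 4089 bp. They lay over the start of Brd2, across the end of Cd74 and at the start of H2-Aa. Their ranks in the list were 95, 118 and 145.

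The assignment by position gave the 10 genes many DHS that belong as much to their neighbours. Only 46 of the 101 had a class II gene as the nearest of all annotated TSSs. The highest score assigned to H2-DMa, 248.36, was at the promoter of Brd2, and the highest assigned to H2-DMb1, 217.53, was at the shared start of Psmb9 and Tap1. On chromosome 17 the outermost DHS inside had scores of 24.68 and 11.58, and the nearest outside had 7.12 and 20.34.

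Across the cluster the DHS were dense. From the start of H2-Oa to the end of H2-Eb1, 223860 bp, DHS covered 33.5% of the sequence, against 2.20% of chromosome 17 and 1.67% of chromosomes 1 to 19 and X. The stretch from H2-Oa to the end of H2-DMb1, which also holds Brd2 and the DHS at its start, had 31.4%. The stretch from there to H2-Ob, which holds the Psmb and Tap genes, had 18.5%, and the stretch from H2-Ob to H2-Eb1 50.5%. Between the diverging starts of H2-Aa and H2-Eb1, 18055 bp apart, 86.8% was covered by 7 DHS. A run of 6 DHS separated by less than 500 bp, at chr17:34427797-34445141, spanned 17345 bp and was the longest of the 37471 runs in the list. The windows of the 10 genes held from 14 DHS at Cd74 to 31 at H2-Eb1, where the median protein-coding gene had 5. The windows of the 8 cluster genes overlap and share most of these sites.

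**Figure D3:**
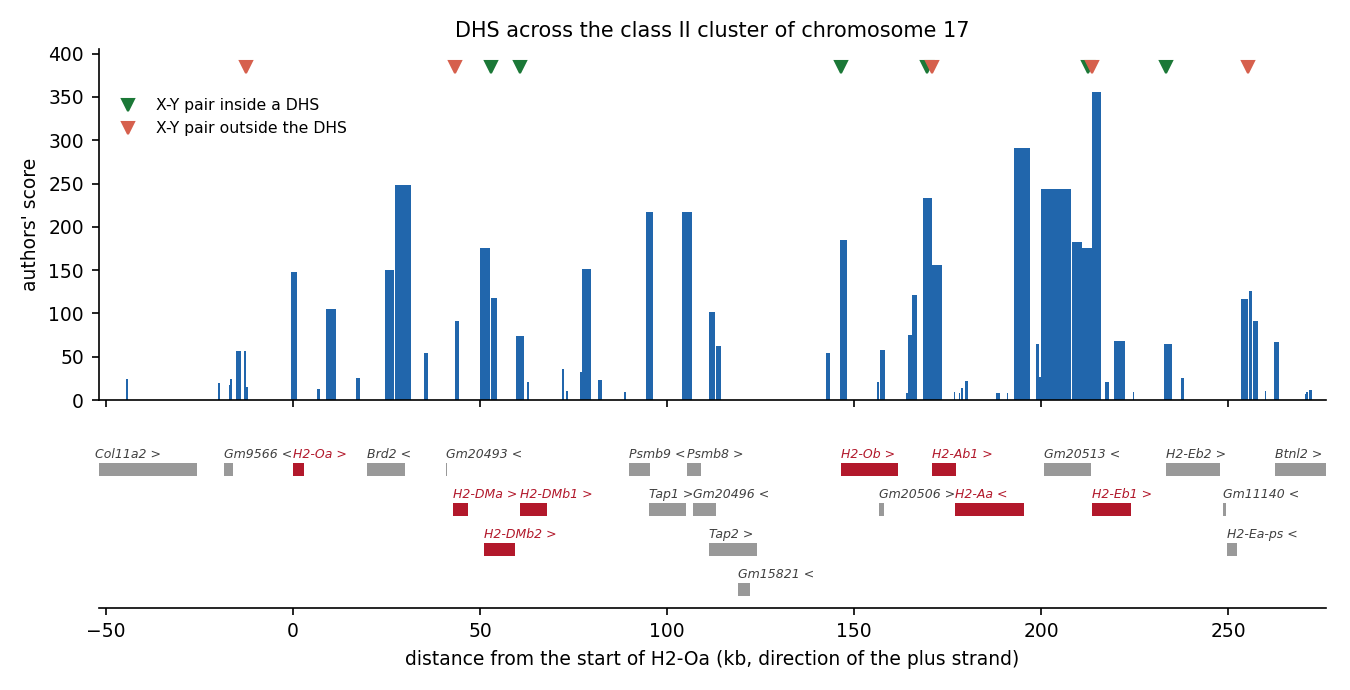
DHS of the chromosome 17 cluster as bars of their true width, with the authors' score as height, against the distance from the start of H2-Oa (kb). Triangles at the top mark X-Y pairs inside (green) and outside (orange) the DHS, and the lower panel shows the class II genes in red and other genes in grey, with > or < for the strand. The tallest bars stand at the starts of H2-Eb1 (356.19) and H2-Aa (291.49), and DHS cover 86.8% of the 18055 bp between these starts.

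The promoter module was then searched in the sequence. An X box with at most 2 mismatches to its consensus, followed by the Y box at the spacing given above, was looked for on both strands from 250 bp upstream to 50 bp downstream of each TSS. It was found at H2-Ab1, H2-DMb2, H2-Eb1 and H2-Ob, 4 of the 10 genes, and at 70 of 22350 protein-coding genes (0.313%). With at most 1 mismatch the same 4 genes were among 11 in all, which also included H2-Eb2, next to H2-Eb1. At H2-DMb1 a pair with 0 mismatches began 21 bp downstream of the annotated TSS and ran past the searched stretch. For H2-Aa, H2-Oa, H2-DMa and Ciita the closest X box in that stretch had 3 mismatches, and for Cd74 it had 2. This says only that the searched letters were not there.

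In the pairs close to a start site the spacing between the boxes was 22 bases at H2-Ab1 and H2-Eb1, 23 at H2-DMb1 and H2-DMb2 and 20 at H2-Ob. The H2-DMa pair, 328 bp downstream of the TSS and so beyond the searched stretch, had a spacing of 23. The H2-DMb1 and H2-DMb2 pairs were identical at 37 of 42 bases (88.1%), and the H2-Eb1 and H2-Eb2 pairs at 33 of 41 (80.5%). In contrast, the H2-Ab1 and H2-Eb1 pairs, of equal length, shared 24 of 41 bases (58.5%).

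Within the windows of the 10 genes, 580080 bp of which DHS covered 22.7%, 13 pairs were found, 7 inside a DHS and 6 outside. Counted by DHS, 7 of 101 held a pair (6.93%), against 0.329% of all DHS (Wilson interval 0.281 to 0.384). Those inside were at H2-DMb2, H2-DMb1, H2-Ob and H2-Eb2, in the upstream DHS of H2-Ab1 (1483 bp from its TSS), in the upstream DHS of H2-Eb1 (912 bp from its TSS) and in the Cd74 DHS (2868 bp downstream of its TSS). The Cd74 pair had 2 mismatches and a spacing of 24 bases, and the pair 912 bp from the H2-Eb1 TSS lay in an annotated exon of Gm20513.

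The pairs nearest to the starts of H2-Ab1 and H2-Eb1 were among those outside a DHS. At H2-Ab1 the pair, with 0 mismatches, lay 63 bp upstream of the TSS in a gap of 80 bp between DHS with scores of 233.34 and 155.97. At H2-Eb1 the pair, with 1 mismatch, lay 111 bp upstream of the TSS in a gap of 66 bp between DHS with scores of 175.3 and 356.19. It was also 52 bp upstream of the start of Gm20513, so by position it belongs to both. Another gap, of 82 bp, lay upstream of H2-Ea-ps, its centre 3104 bp from the annotated start, between DHS with scores of 117.12 and 125.99, and held a pair with 2 mismatches. The last, of 100 bp, lay 12538 bp upstream of H2-Oa between DHS with scores of 56.67 and 15.05, and held a pair with 0 mismatches. Each pair lay wholly inside its gap. The 3 narrowest of these gaps are shown in capitals, with 9 bases of the DHS on each side in lower case, on the plus strand of mm9.
H2-Ab1, chr17:34400056-34400153: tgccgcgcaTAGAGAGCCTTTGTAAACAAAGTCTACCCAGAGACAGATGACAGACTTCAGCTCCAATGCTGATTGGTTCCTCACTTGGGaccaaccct
H2-Eb1, chr17:34442704-34442787: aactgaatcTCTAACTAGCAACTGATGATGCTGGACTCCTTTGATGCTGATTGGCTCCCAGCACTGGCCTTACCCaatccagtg
upstream of H2-Ea-ps, chr17:34484644-34484743: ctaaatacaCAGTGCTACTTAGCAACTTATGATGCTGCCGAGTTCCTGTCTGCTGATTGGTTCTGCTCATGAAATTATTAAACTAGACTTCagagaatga

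**Figure D4:**
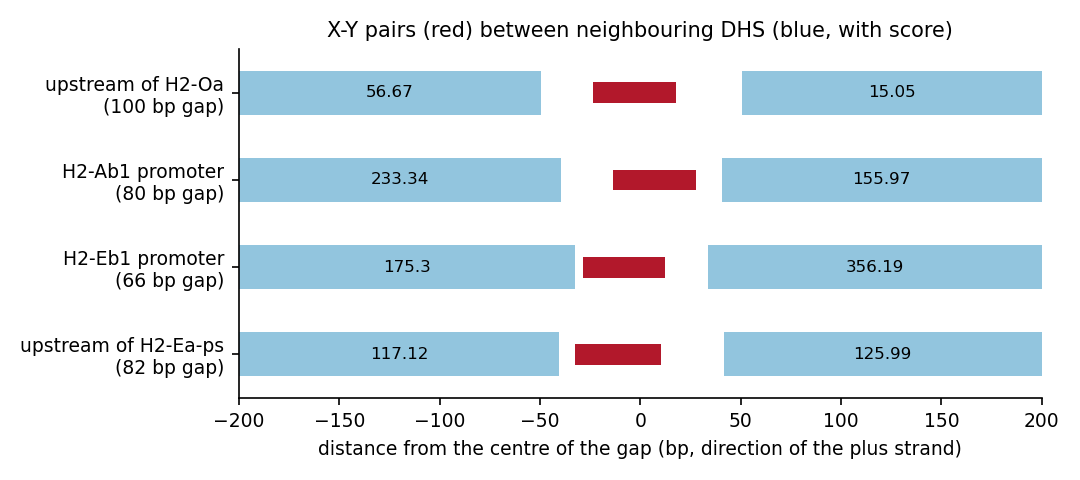
The 4 narrow gaps of the cluster that hold an X-Y pair, drawn to scale around the centre of each gap (x axis, bp). Blue boxes are the neighbouring DHS with their scores and red boxes the pair. Each red box lies between the blue boxes, in gaps of 66 to 100 bp.

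Since this was noticed in the data, it was counted over the whole list. Of 3375 gaps under 100 bp between neighbouring DHS, 5 held or touched a pair (0.148%), and of the 12 such gaps among class II DHS 3 did (25%). The other gaps were near Ppif and Gm12034. Under 200 bp the counts were 13 of 6720 gaps in the list and 4 of 21 in the set. In the same way, 733 pairs with at most 1 mismatch were found on chromosomes 1 to 19 and X, of which 20 were inside a DHS, 1 was partly inside and 3 were in a gap under 200 bp, and those 3 were the pairs at H2-Ab1, at H2-Eb1 and upstream of H2-Oa. Outside the class II windows 15 of 724 such pairs were inside a DHS and 1 partly so (2.21% together), and 0 were in a gap of that size. Inside the windows 5 of 9 were in a DHS, 3 in a gap, and the remaining one, that of H2-DMa 328 bp downstream of its TSS, ended 37 bp before the DHS of that gene. None of the 31-base words in the gaps at H2-Ab1, at H2-Eb1 and upstream of H2-Ea-ps was repeated in the assembly. The smallest gap between any neighbouring DHS of the list was 52 bp, so gaps of this size are close to what the peak list can separate. Why the pairs lay between called DHS was not tested.

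Words bound by other factors of B cells were counted in the same DHS. The octamer ATGCAAAT was in 4 of the 101 DHS (3.96%, against 4.70% of all DHS), the PU.1 word GAGGAAGT in 6 (5.94%, against 8.90%), the IRF word AANNGAAA in 67 (66.3%, against 56.7%), the E box CAGGTG in 59 (58.4%, against 50.6%), the Y box letters ATTGG alone in 65 (64.4%, against 60.6%) and a CTCF core in 10 (9.90%, against 7.18%), each searched on both strands. Since class II DHS were wider at the median, matches were also counted per kb of DHS. The IRF word had 1.25 matches in class II DHS and 1.25 in all DHS, per kb, ATTGG had 1.22 and 1.26, the E box 0.888 and 0.924, the octamer 0.0303 and 0.0547, the PU.1 word 0.0683 and 0.106 and the CTCF core 0.0759 and 0.0799.

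The genes that act with class II molecules were examined in the same way, against the 57.0% of all protein-coding genes with a promoter DHS. Of the factors that assemble on the X and Y boxes, 7 of 7 (Rfx5, Rfxap, Rfxank, Nfya, Nfyb, Nfyc and Creb1) had a promoter DHS, with scores from 105.29 for Nfyb to 343.17 for Nfya, a subunit of NF-Y. Of the genes for antigen processing in the endosome, including the cathepsins, the thiol reductase Ifi30 and the ubiquitin ligase March1, 7 of 7 had one, from 40.17 at Ctss, which cleaves the invariant chain, to 149.94 at Ifi30. Of the neighbours in the cluster 7 of 7 had a promoter DHS, with scores from 64.5 at H2-Eb2 to 248.36 at Brd2. These were not 7 separate sites, since Psmb9 and Tap1 shared a DHS (217.53), as did Psmb8 and Tap2 (216.83). All of them were already among the DHS assigned to the class II genes. H2-Ea-ps, counted here, is a pseudogene and not part of the protein-coding share. Aire, a factor of the thymic epithelium listed among 3 genes of other tissues, had one with a score of 49.75, and the other 2, Alb and Krt5, had none.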

How the data were processed

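DNase-seq fragments of 1 B cell library were aligned by the authors. The submitters' processing notes name BWA 0.6.2, SAMtools and build mm9 without saying which step each served. Per the methods, nuclei were digested with several DNase I concentrations and the digest of best signal to noise was sequenced. The authors deposited a MACS peak list that gives each peak a position, a name and a score. The MACS version and settings for this library are not given in the sources used here. Read counts are not in the list, so depth is unknown, and width and score depend on the caller.

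Positions (from 1) were matched to GENCODE M1 on NCBI build 37. Promoter windows, nearest TSSs, coverage, gaps and motif pairs were computed with Python 3.11.15, pandas 2.3.3, pysam 0.24.0 and scipy 1.17.1, and the functions were tested on simulated data. Intervals are at the 95% level and cover counting error only. They take genes and DHS as independent, although many of those described are neighbours. All 10 genes are named, each with its highest DHS and those nearest its TSSs, plus the 3 strongest distal DHS. The result of 1 marker list is not reported here. Pathway lists are given by counts, naming genes without a promoter DHS and those of lowest and highest score, and marker lists by counts, with some members named. Members, lists and alternatives were chosen with earlier results of these data known, and the narrow gaps were singled out after their values were seen.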

Additional observations from a re-analysis of the deposited data

How the results depend on the processing

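With 1 library no paired analysis was possible because there is no second group, and no replicate could be left out. The 101 DHS fell to 60 with a flank of 10 kb, 37 over gene bodies, 46 when the nearest TSS of any gene had to be a class II gene, and 57 at or above the median score. The median width was 1588 bp at or above the median score and 1268 bp with DHS closer than 500 bp merged. Coverage of the cluster was 27.9% with 50 kb flanks and 28.8% at or above the median score. The share of all DHS with an X-Y pair was 0.0421% with at most 1 mismatch and 2.39% with at most 3. The cause of these changes was not tested beyond what each setting removes. The other 18 of 28 alternative values were counts within 1.5 times the count reported, such as 68 DHS after merging, or medians within its interval. Coverage has no interval, so that both its values are listed. The 6 alternatives on repeated words and on narrow gaps were chosen after seeing the data.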

Other observations

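Pairs with at most 1 mismatch also occurred in promoters outside the class II set. Beside the 4 class II genes these were Aptx, BC051142, Ccdc80, Gpr112, H2-Eb2, Rhobtb1 and Stambpl1, chosen after their values were seen. A DHS touched the pair at BC051142, next to the cluster, with a score of 132.19, at Aptx with 130.47 and at H2-Eb2 with 64.5, and at none of the other 4. Among the class II genes a DHS touched it at H2-Ob with a score of 184.94 and at H2-DMb2 with 117.52.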
